A study of Mus musculus with 15 samples.

Results

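The response common to 3 unlike stimuli was examined in mouse microglia grown from embryonic stem cells, by setting all 9 stimulated arrays against all 6 untreated arrays, which together are the 15 arrays of the series. The cells came from C57BL/6-ATCC embryonic stem cells and were kept in N2 medium. The stimulated cells were given IL-4 at 100 U/ml (3 arrays), LPS at 500 ng/ml together with IFN-γ at 20 ng/ml (LPS/IFN-γ, 3 arrays) or TGF-β at 50 ng/ml (3 arrays), each for 24 h. The 6 untreated arrays carried no agent, and their labels give no time. Each stimulus had the same weight in the average, and a gene was counted as shared where all 3 stimuli moved it the same way. Total RNA was read on Illumina mouse bead arrays, and 8561 genes were measured. All groups share the stem cell background and the medium. No label tells whether arrays of a group stand for independent cultures, and the p-values thus rest on differences between arrays that may be technical. Levels are normalized log2 signals, and a log2 fold change is a stimulus minus untreated.

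Microglia are the resident macrophages of the brain, and in culture they are set on different paths by different signals. LPS acts through Toll-like receptor 4, and together with IFN-γ it gives a strongly inflammatory state. IL-4 acts through STAT6 and is linked with tissue repair, and TGF-β acts through Smad proteins and holds microglia in a quiet, homeostatic state. Macrophages in culture divide under growth factors, and LPS and IFN-γ are known to halt that division.

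Of 17 microglia and macrophage markers on the array, 15 were above background on at least 1 array and 10 on all 15, among them Csf1r, Aif1, Trem2, Spi1 and Adgre1. P2ry12 and C1qa, which mark microglia in the brain, were above background on none, and Tmem119 and Cx3cr1 were above background on 3 arrays each and on no untreated array. The summed signal of the measured markers ranged from 58867.7 to 63569.5 with IL-4, from 49786.4 to 52520.0 with LPS/IFN-γ, from 68648.5 to 71007.4 with TGF-β and from 57222.3 to 59609.1 in untreated cells. None of 9 neuron, 7 oligodendrocyte or 9 fibroblast markers was above background, and 9 of 10 stem cell markers were not either. Of 8 astrocyte markers 5 were above background on no array, Gfap and Aqp4 among them, while Aldoc and Slc1a2 were above it on all 15 arrays and Aldh1l1 on 9. Of 7 endothelial and 7 granulocyte markers 1 each was tested, and both were highest with TGF-β, at summed signals of 676.8 to 724.7 against 202.4 to 232.0 in untreated cells and 341.1 to 411.8 against 101.4 to 122.8, and their part in the results was not tested. In bulk RNA, fewer cells of a kind and less RNA per cell cannot be told apart. LPS/IFN-γ array 3 stood apart from its group, with 145 genes at least 2-fold away from the mean of its group, against 1 to 33 genes on the other 14 arrays. The arrays lay on 3 chips, each with 1 array of every stimulus and 1, 3 or 2 untreated arrays.

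The average of the 3 stimuli differed from untreated in 3030 of 8561 genes at an adjusted p under 0.05 (35.4%). Of these, 1272 were higher (14.9%) and 1758 lower (20.5%) in stimulated cells. The stimuli alone called 1024 genes with IL-4 (12%, with 483 or 5.64% higher), 4770 with LPS/IFN-γ (55.7%, with 1837 or 21.5% higher) and 3318 with TGF-β (38.8%, with 1689 or 19.7% higher), all against the same 6 untreated arrays. Together, 147 genes were called the same way by all 3 (1.72% of those tested), 63 of them higher (0.736%) and 84 lower (0.981%). Every one of the 147 was also called in the average. The average is made of the same 3 comparisons, so that this largely follows from the selection and adds no support.

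The changes in both directions were small. Among the 63 shared higher genes the median log2 fold change was 0.51 with IL-4, 0.79 with LPS/IFN-γ and 0.60 with TGF-β, beside medians over all genes of -0.02, -0.08 and -0.00. The weakest of the 3 stimuli reached 1.5-fold in 18 of the 63 genes and 2-fold in 3. Among the 84 shared lower genes the medians were -0.35 with IL-4, -0.39 with LPS/IFN-γ and -0.46 with TGF-β, and the weakest stimulus reached 1.5-fold in 2 genes and 2-fold in none. The strongest of the 3 was LPS/IFN-γ for 34, TGF-β for 17 and IL-4 for 12 of the higher genes, and TGF-β for 44, LPS/IFN-γ for 29 and IL-4 for 11 of the lower genes. The levels of the 9 stimulated arrays lay wholly above those of the 6 untreated arrays for 42 of the 63 and wholly below them for 76 of the 84, beside 0.818% and 1.99% of all genes (2.80% in all). Most genes described below were picked from those without overlap, so that their lack of overlap restates the choice. Within the 3 chips, all 9 differences between a stimulated array and the untreated arrays of its chip had the direction of the call for 61 of the 63 and 83 of the 84. The genes were picked on these same arrays, so that such agreement largely follows from the call and is no separate check.

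**Figure D1:**
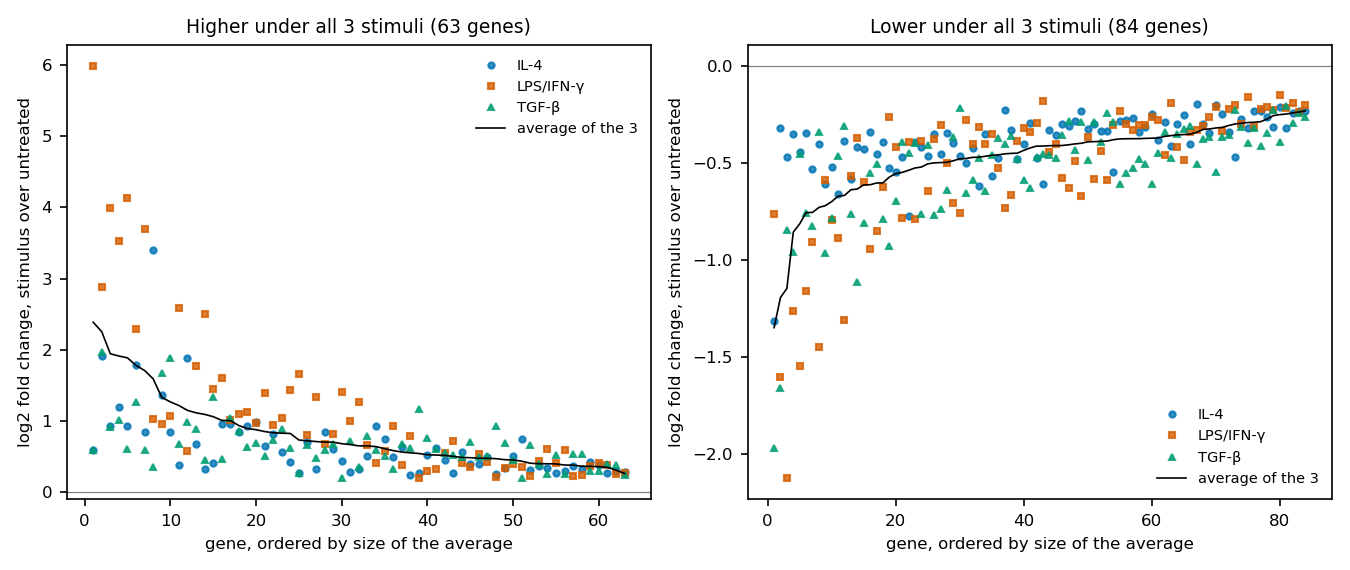
Log2 fold change of stimulus over untreated (vertical axis) for the 63 genes called higher (left) and the 84 called lower (right) by all 3 stimuli, ordered along the horizontal axis by the average of the 3 (black line). Points are IL-4 (circles), LPS/IFN-γ (squares) and TGF-β (triangles). The lower genes stay mostly within a narrow band, while LPS/IFN-γ points of some higher genes reach far above the other stimuli.

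Same direction did not mean same size. A moderated F-test among the stimuli called a difference in 36 of the 63 higher and 47 of the 84 lower genes, beside 5551 of all 8561 genes (64.8%), and it did not call one in 27 higher and 37 lower genes.

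Plau, the gene taken as the marker of this response with earlier results of these arrays known, encodes urokinase, a secreted serine protease that turns plasminogen into plasmin. Its level was 8.91, 8.50 and 8.69 with IL-4, 8.84, 8.63 and 9.28 with LPS/IFN-γ, and 9.83, 9.82 and 9.56 with TGF-β, against 8.30, 7.47, 7.76, 8.27, 7.86 and 7.42 in untreated cells. All 9 stimulated arrays lay above all 6 untreated arrays, the TGF-β arrays highest, and the untreated arrays were themselves spread over most of 1 log2 unit. The log2 fold change was 0.85 ± 0.20 with IL-4, 1.07 ± 0.20 with LPS/IFN-γ and 1.89 ± 0.20 with TGF-β (SE; adjusted p = 0.0109, 2.8e-04 and 3.0e-06), and 1.27 ± 0.15 for the average (adjusted p = 1.1e-05). TGF-β exceeded LPS/IFN-γ by 0.82 (95% interval 0.34 to 1.30) and IL-4 by 1.04 (0.56 to 1.52), while LPS/IFN-γ and IL-4 differed by 0.22 (-0.26 to 0.70, adjusted p = 0.4442). Without IL-4 array 1 the IL-4 call was lost (adjusted p = 0.0652). Untreated arrays 2 and 6 were the lowest. Without them, a choice made after the values were seen, the average was 1.07 and the largest of the 3 adjusted p-values 0.0370. The average on the separate chips was 0.90, 1.14 and 1.53.

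Other genes of the plasminogen system did not move as a block. Of 15 listed genes 7 were measured, 3 were called higher in the average (42.9%, beside 14.9% of all genes) and none lower, and 2, Plau and Plgrkt, were shared. Plgrkt, a membrane receptor that binds plasminogen, was at 11.68, 11.66 and 11.61 with IL-4, 11.46, 11.37 and 11.87 with LPS/IFN-γ and 12.05, 11.95 and 12.01 with TGF-β, against 11.30, 11.35, 11.24, 11.36, 11.42 and 11.32 in untreated cells. The LPS/IFN-γ arrays overlapped the untreated ones, and the log2 fold changes were 0.32, 0.23 and 0.67 (adjusted p = 0.0322, 0.0378 and 3.5e-05). Its shared call held in 7 of the 15 fits that each leave out 1 array, and was lost without any 1 IL-4 array, LPS/IFN-γ array 3 or untreated array 1, 2, 3 or 6 (largest adjusted p 0.33). Plaur, the urokinase receptor, fell with IL-4 (-0.72, adjusted p = 0.0090) and rose with LPS/IFN-γ (0.40, adjusted p = 0.0442) and TGF-β (0.49, adjusted p = 0.0259), so that its average was 0.06 ± 0.12. Lrp1, an endocytic receptor that clears urokinase bound to its inhibitors, fell with LPS/IFN-γ (-0.66) and rose with TGF-β (0.73). Anxa2, a cell-surface plasminogen-binding protein, rose with IL-4 (0.33) and TGF-β (0.28) and was at -0.10 with LPS/IFN-γ (adjusted p = 0.2157). S100a10, its partner, and Mmp9, a gelatinase, were called with none of the stimuli.

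Among the other shared genes, those whose 4 group means followed Plau most closely were Sh3glb1 (Pearson r 0.99), Snx32 (0.98), Bcl2l11 (0.97), Plgrkt (0.96) and Gm14325 (0.96). This is a description over 4 means that share all arrays. Genes outside the shared set were not ranked, so that a like direction was largely set by the choice. Sh3glb1 encodes endophilin B1, a membrane-curving protein, and its log2 fold changes were 0.34, 0.34 and 0.69 with IL-4, LPS/IFN-γ and TGF-β. Bcl2l11 encodes Bim, a BH3-only protein that promotes apoptosis, and its log2 fold changes were 0.26, 0.41 and 0.52. Snx32, a sorting nexin, had 0.40, 0.35 and 0.70, and Gm14325, a gene model, 0.32, 0.24 and 0.53. The shared call held in 12 of the 15 fits that leave out 1 array for Sh3glb1, 6 for Bcl2l11, 4 for Snx32 and 14 for Gm14325. The call of Sh3glb1 was lost without IL-4 array 1 or 2 or untreated array 4, and that of Gm14325 without LPS/IFN-γ array 2. Losing any of 9 arrays ended the call of Bcl2l11 and losing any of 11 that of Snx32, in each case including IL-4 arrays 1 and 2.

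Cd40 and Cd274 were higher by very unequal sizes. Cd40, a costimulatory receptor of the TNF receptor family, stood at 9.48, 9.29 and 9.25 with IL-4, 11.46, 11.17 and 12.40 with LPS/IFN-γ and 9.16, 9.29 and 9.04 with TGF-β, against 8.34, 8.08, 8.15, 7.91, 8.16 and 8.26 in untreated cells. No stimulated array reached down to the untreated range, and the LPS/IFN-γ arrays stood far above the rest. That is 2.28-fold with IL-4, 11.6-fold with LPS/IFN-γ and 2.02-fold with TGF-β (adjusted p = 8.6e-04, 4.7e-10 and 5.9e-04). Of 3 dimmer kept probes of Cd40, 1 was called by all 3 stimuli and 2 by LPS/IFN-γ alone. Cd274 encodes PD-L1, an inhibitory ligand for T cells. Its level was 8.91, 8.78 and 8.95 with IL-4, 11.63, 11.54 and 12.64 with LPS/IFN-γ and 8.84, 8.91 and 8.81 with TGF-β, against 8.06, 7.93, 7.88, 7.97, 7.71 and 8.12 in untreated cells. The IL-4 and TGF-β arrays sat together, just under 1 log2 unit above untreated, and differed from each other by 0.02 (95% interval -0.41 to 0.46). LPS/IFN-γ was 3.99 ± 0.18 above untreated (SE, adjusted p = 5.0e-11).

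Adgre1, which encodes the macrophage surface protein F4/80, rose by like amounts with all 3. It stood at 12.54, 12.71 and 12.96 with IL-4, 12.68, 13.02 and 12.80 with LPS/IFN-γ and 12.69, 12.74 and 12.68 with TGF-β, against 12.003, 12.05, 12.05, 12.01, 12.18 and 11.92 in untreated cells. All stimulated arrays were higher, with no overlap. The log2 fold changes were 0.70 ± 0.09, 0.80 ± 0.09 and 0.67 ± 0.09 (SE; adjusted p = 1.6e-04, 3.6e-06 and 4.6e-05). LPS/IFN-γ and IL-4 differed by 0.10 (95% interval -0.13 to 0.32), LPS/IFN-γ and TGF-β by 0.13 (-0.10 to 0.36) and IL-4 and TGF-β by 0.03 (-0.19 to 0.26), and the F-test among stimuli gave an adjusted p of 0.5074. All 3 kept probes of Adgre1 were called higher by each stimulus, with averages of 0.72, 0.74 and 0.88.

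Rnf19b, an E3 ubiquitin ligase found in natural killer cells and macrophages, was at 10.68, 10.58 and 10.63 with IL-4, 10.78, 10.85 and 11.77 with LPS/IFN-γ and 10.08, 10.19 and 10.06 with TGF-β, against 8.94, 8.85, 8.79, 8.76, 8.82 and 8.89 in untreated cells. The untreated arrays were tightly grouped, and the lowest stimulated array was more than 1 log2 unit above the highest of them. The folds were 3.45 with IL-4, 4.90 with LPS/IFN-γ and 2.40 with TGF-β (adjusted p = 2.9e-06, 7.5e-09 and 1.4e-05). Each pair of stimuli differed as well, LPS/IFN-γ from IL-4 by 0.51 and from TGF-β by 1.03, and IL-4 from TGF-β by 0.52 (adjusted p = 0.0270, 1.6e-04 and 0.0374). Rnf19b was 1 of 3 genes in which every stimulus reached 2-fold, beside Cd40 and Sppl2a. A dimmer probe of Rnf19b gave 0.53, 2.10 and 0.08 with the same stimuli.

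Sppl2a encodes an intramembrane protease of endosomes and lysosomes. Its level was 8.87, 8.66 and 9.13 with IL-4, 9.68, 9.50 and 10.37 with LPS/IFN-γ and 8.95, 9.12 and 8.76 with TGF-β, against 8.27, 5.82, 7.06, 8.27, 7.17 and 5.24 in untreated cells. The groups did not overlap, but untreated arrays 2 and 6 were low and the untreated SD of 1.24 was the largest of any gene tested. The average log2 fold change of 2.25 ± 0.40 (SE, adjusted p = 5.0e-04) was 1.53 without those 2 arrays. The shared call was lost without any 1 IL-4 array or untreated array 2 (largest adjusted p 0.1121). Among the 63 shared higher genes 9 had an untreated SD over 0.3, Plau, Sppl2a, Gigyf1 and Gna13 among them, beside 403 of all 8561 genes and none of the 84 shared lower genes.

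Gigyf1, an adaptor protein that binds Grb10, was at 8.47, 8.13 and 8.51 with IL-4, 8.46, 8.41 and 8.41 with LPS/IFN-γ and 8.63, 8.36 and 8.36 with TGF-β, against 7.65, 6.81, 7.86, 8.12, 7.55 and 6.46 in untreated cells. Stimulated arrays were even and untreated arrays uneven, with arrays 2 and 6 again lowest and array 4 just under the lowest stimulated array. The log2 fold changes were 0.96, 1.02 and 1.04 (adjusted p = 0.0342, 0.0055 and 0.0073), and a dimmer probe of the gene gave 0.32, 0.35 and 0.18. The shared call was lost without any 1 IL-4 array or untreated array 2. Gna13, the Gα13 subunit that couples receptors to RhoA, rose by 0.67, 1.78 and 0.89, and a dimmer probe gave -0.07, 1.31 and 0.89. Its call held in 3 of the 15 fits that leave out 1 array, those without LPS/IFN-γ array 2 or 3 or untreated array 1, and under 6 of 13 other settings. It was lost with chip as a fixed block and under cyclic loess, among others. Marcks, an actin-binding substrate of protein kinase C, rose by 0.61, 0.82 and 0.68, with its IL-4 call lost without IL-4 array 1 (adjusted p = 0.0502). Zfp871, a zinc finger protein, rose by 0.98, 0.97 and 0.69, a call lost without TGF-β array 1 (adjusted p = 0.0538). In Marcks and Zfp871 all stimulated arrays lay above all untreated ones.

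Feedback regulators of signalling were represented by single genes. Zfp36 encodes tristetraprolin, which binds AU-rich elements and promotes the decay of cytokine mRNAs. Its level was 11.24, 11.37 and 11.11 with IL-4, 11.09, 11.005 and 12.39 with LPS/IFN-γ and 11.12, 11.45 and 11.20 with TGF-β, against 10.45, 10.38, 10.21, 10.32, 10.55 and 10.45 in untreated cells. There was no overlap, and LPS/IFN-γ array 3 was more than 1 log2 unit above the other 2 arrays of its group. The log2 fold changes were 0.85, 1.10 and 0.86 (SE 0.22 each; adjusted p = 0.0210, 5.8e-04 and 0.0058), and the call was lost without any 1 IL-4 array (largest adjusted p 0.0793). Zfp36 was the only shared gene (5.56%, beside 1.72% of all genes) of the 18 measured immediate-early transcription factors and mRNA regulators. Of these, 10 were higher and 2 lower in the average (55.6% and 11.1%, beside 14.9% and 20.5% of all genes). Fos, by contrast, was at 0.33 with IL-4 (not called), fell by 1.84 with LPS/IFN-γ and rose by 1.94 with TGF-β.

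Dusp1, a phosphatase that switches off p38 and JNK, was at 10.20, 10.08 and 10.32 with IL-4, 9.94, 9.91 and 10.40 with LPS/IFN-γ and 10.16, 10.28 and 9.9996 with TGF-β, against 9.86, 9.65, 9.76, 9.55, 9.77 and 9.56 in untreated cells. The stimulated arrays were all higher, by a narrow margin. The log2 fold changes were 0.51, 0.40 and 0.46 (adjusted p = 0.0082, 0.0070 and 0.0042), with pairwise differences of at most 0.11 and intervals from -0.39 to 0.32. Its call was lost without IL-4 array 3 or LPS/IFN-γ array 3. Dusp1 was the only shared gene (6.25%, beside 1.72% of all genes) of 16 MAP kinase phosphatases and Sprouty-related genes. Of these, 6 were higher and 4 lower in the average (37.5% and 25.0%, beside 14.9% and 20.5% of all genes). Ccng2, an atypical cyclin linked with cell cycle arrest, rose by 0.40, 1.45 and 1.33 (adjusted p = 0.01, 3.6e-09 and 3.9e-08). It was the only shared gene of 20 D cyclins and cell cycle brakes (5.00%, beside 1.72% of all genes). Of the 20, 5 were higher and 6 lower in the average (25.0% and 30.0%, beside 14.9% and 20.5% of all genes). Untreated array 3 read 8.10 for Ccng2, level with the lowest IL-4 array, and the IL-4 call was lost without IL-4 array 3 (adjusted p = 0.0673).

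Among interferon-stimulated genes, Parp14 and Oas1g were shared, and both were moved mainly by LPS/IFN-γ. Parp14, an ADP-ribosyltransferase, was at 6.91, 7.05 and 7.10 with IL-4, 12.53, 12.44 and 12.30 with LPS/IFN-γ and 7.05, 7.12 and 6.91 with TGF-β, against 6.64, 6.39, 6.32, 6.32, 6.32 and 6.63 in untreated cells. IL-4 and TGF-β each raised it by 0.59 and LPS/IFN-γ by 5.98, and a dimmer probe gave -0.14, 3.61 and -0.10. Oas1g, an oligoadenylate synthetase that senses double-stranded RNA, rose by 0.33, 2.51 and 0.45, and its other kept probe rose by 0.40, 2.54 and 0.34. Samd9l, an interferon-inducible gene, rose by 0.92, 4.13 and 0.61 (adjusted p = 0.0016, 9.4e-12 and 0.0071), and was above background on 2 of the 6 untreated arrays. Its shared call was lost without background correction and in the authors' log2 table, and the gene was not tested where signal above background on all 15 arrays was required. All 23 measured genes of the 33 on the interferon list were higher in the average, beside 14.9% of all genes, and LPS/IFN-γ alone called all 23 higher. IL-4 alone called 3 higher and 1 lower and TGF-β alone 4 higher and 6 lower. Of all genes LPS/IFN-γ called 21.5% higher, IL-4 5.64% higher and 6.32% lower, and TGF-β 19.7% higher and 19.0% lower. The list's medians were 0.11 with IL-4, 3.00 with LPS/IFN-γ and -0.02 with TGF-β. A gene could also enter the test through the 3 LPS/IFN-γ arrays alone, so that the count in the average says little of the other stimuli. Mgst1, a membrane-bound glutathione transferase, rose by 0.27, 0.39 and 0.39, with its call lost without any 1 IL-4 array. Rnase2a, a secreted ribonuclease of the RNase A family, rose by 3.40, 1.03 and 0.35, and its TGF-β call was lost without TGF-β array 2 or 3 or untreated array 2, 4 or 5 (largest adjusted p 0.1511).

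**Figure D2:**
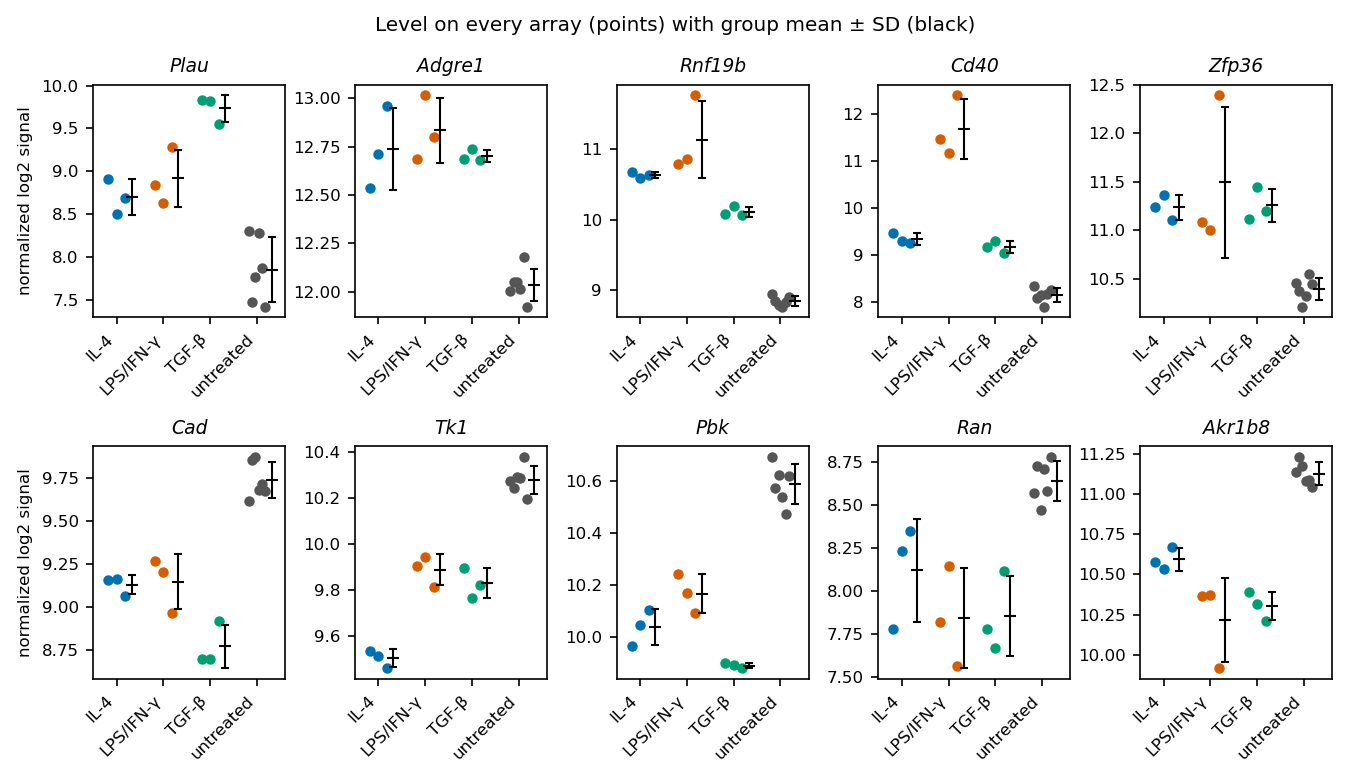
Normalized log2 signal (vertical axes, separate scales) on every array for 5 genes called higher (top) and 5 called lower (bottom) by all 3 stimuli, with IL-4, LPS/IFN-γ and TGF-β (3 arrays each) left of untreated (6 arrays). Points are arrays and black marks are group means ± SD. In each of the 10 genes the untreated arrays do not overlap the stimulated ones, but all except Tk1 were picked by a rule that asked for this.

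The shared lower genes included enzymes that make nucleotides for DNA. Cad, the enzyme of the first steps of pyrimidine synthesis, was at 9.16, 9.16 and 9.06 with IL-4, 9.27, 9.21 and 8.97 with LPS/IFN-γ and 8.70, 8.70 and 8.92 with TGF-β, against 9.62, 9.85, 9.87, 9.68, 9.72 and 9.67 in untreated cells. Every stimulated array was lower, TGF-β most. The log2 fold changes were -0.61, -0.59 and -0.96 (SE 0.08 each; adjusted p = 2.7e-04, 3.2e-05 and 5.4e-07). TGF-β differed from IL-4 by 0.36 (95% interval 0.15 to 0.57) and from LPS/IFN-γ by 0.38 (0.17 to 0.58). Tk1, the thymidine kinase of S phase, was at 9.54, 9.52 and 9.46 with IL-4, 9.91, 9.95 and 9.82 with LPS/IFN-γ and 9.90, 9.77 and 9.83 with TGF-β, against 10.27, 10.24, 10.29, 10.29, 10.38 and 10.20 in untreated cells. Here IL-4 was lowest, at -0.77, beside -0.39 with LPS/IFN-γ and -0.45 with TGF-β (adjusted p = 1.2e-06, 6.7e-05 and 3.7e-05), and it differed from both. Rrm2, the small subunit of ribonucleotide reductase, fell by 0.34, 0.94 and 0.55, with its IL-4 call lost without any 1 IL-4 array (largest adjusted p 0.0885). Its dimmest probe gave -0.46, 0.15 and -0.46.

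Of 37 measured DNA replication genes, 31 were lower in the average (83.8%, beside 20.5% of all genes) and none higher. The shared ones were 5, Tk1, Rrm2, Rrm1, Mcm2 and Mcm5 (13.51%, beside 1.72% of all genes). The list's median in the average was -0.30, beside -0.03 over all genes, and its medians were -0.23 with IL-4, -0.39 with LPS/IFN-γ and -0.35 with TGF-β. IL-4 called 11 of the 37 lower and none higher, LPS/IFN-γ 24 lower and 3 higher, and TGF-β 25 lower and 1 higher. Over all genes the same stimuli called 6.32%, 34.3% and 19.0% lower and 5.64%, 21.5% and 19.7% higher. Mcm2 and Mcm5 encode subunits of the MCM helicase, which opens DNA at replication origins. Mcm2 fell by 0.39, 0.70 and 0.37. Mcm5 fell by 0.23, 0.67 and 0.29, and the call of Mcm5 was lost without IL-4 array 2 or 3 or untreated array 3, 5 or 6.

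Mitosis genes split the stimuli. Of 33 measured, 23 were lower in the average (69.7%, beside 20.5% of all genes) and none higher, with a median of -0.30. The medians by stimulus were -0.33 with IL-4, 0.07 with LPS/IFN-γ and -0.60 with TGF-β. LPS/IFN-γ called 10 of the 33 higher and 6 lower, while IL-4 and TGF-β called 20 and 27 lower and none higher. Of all genes LPS/IFN-γ called 21.5% higher and 34.3% lower, IL-4 5.64% and 6.32%, and TGF-β 19.7% and 19.0%. Cdk1, Ncapd2 and Ncaph were the shared mitosis genes (9.09%, beside 1.72% of all genes). Cdk1, the kinase that drives entry into mitosis, was at 10.47, 10.50 and 10.35 with IL-4, 10.42, 10.49 and 10.25 with LPS/IFN-γ and 10.18, 9.99 and 10.26 with TGF-β, against 10.72, 10.92, 10.75, 10.69, 10.84 and 10.82 in untreated cells. All stimulated arrays were lower, and the log2 fold changes were -0.35, -0.40 and -0.65 (adjusted p = 0.0102, 5.3e-04 and 1.5e-05), the IL-4 call being lost without IL-4 array 3 (adjusted p = 0.0627). Cdc20, the activator of the anaphase-promoting complex, showed the split, with -0.39 with IL-4, 0.36 with LPS/IFN-γ and -0.85 with TGF-β, each called. Ncapd2, a condensin subunit, fell by 0.41, 0.19 and 0.48, and its LPS/IFN-γ call was lost without any 1 LPS/IFN-γ array or untreated array 1, 5 or 6 (largest adjusted p 0.0992).

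Pbk, a mitotic kinase, was at 9.97, 10.05 and 10.10 with IL-4, 10.24, 10.17 and 10.09 with LPS/IFN-γ and 9.90, 9.89 and 9.88 with TGF-β, against 10.69, 10.57, 10.62, 10.54, 10.47 and 10.62 in untreated cells. The stimulated arrays were all below the untreated ones, and the log2 fold changes were -0.55, -0.42 and -0.70 (SE 0.06 each; adjusted p = 5.1e-05, 5.4e-05 and 8.0e-07). Mybl2, a transcription factor of S and G2 phase genes, fell by 0.39, 0.62 and 0.79, with the IL-4 call lost without IL-4 array 2 (adjusted p = 0.0527). Fam83d, a spindle protein, fell by 0.58, 0.57 and 0.77, and the F-test among stimuli called no difference (adjusted p = 0.4204). In Mybl2 and Fam83d the groups did not overlap.

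RefSeq promoter windows (GRCm38.p6, 250 bases before to 50 after the annotated start) were at hand for 127 of the 147 shared genes. E2F factors act on many replication genes, and the letters TTTCCCGC or TTTGGCGC, searched on both strands, were in 7 of 80 windows of shared lower genes (8.75%) and 2 of 67 windows of shared higher genes (2.99%), beside 271 of 9024 windows of all genes tested (3.00%) and 1.56% of all windows in the table. The AP-1 letters TGAGTCA (on either strand) were in 5.97% of shared higher, 1.25% of shared lower and 3.75% of all tested windows. An NF-κB motif of 10 letters was in 1.49%, 0.00% and 0.34%. The STAT letters TTCNNNGAA were in 10.45%, 11.25% and 6.76%, the Smad letters CAGACA in 14.93%, 15% and 15.44%, and the E-box CACGTG in 13.43%, 15% and 10.53%. These are counts of letters, made without a test, and genes with several windows count more than once. Shown here are 4 of the 7 lower-gene windows with E2F letters, chosen for known roles in replication, nuclear transport and chromosome condensation, with the match in capitals. The first base of the match lay at -149 in Mcm5, -5 in Pclaf, -37 in Ranbp1 and -8 in Ncapd2, counted from the annotated start. The windows are chr8:75109259-75109558 on the plus strand for Mcm5, chr9:65890073-65890372 on the plus strand for Pclaf, chr16:18248645-18248944 on the minus strand for Ranbp1 and chr6:125191537-125191836 on the minus strand for Ncapd2.

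Mcm5: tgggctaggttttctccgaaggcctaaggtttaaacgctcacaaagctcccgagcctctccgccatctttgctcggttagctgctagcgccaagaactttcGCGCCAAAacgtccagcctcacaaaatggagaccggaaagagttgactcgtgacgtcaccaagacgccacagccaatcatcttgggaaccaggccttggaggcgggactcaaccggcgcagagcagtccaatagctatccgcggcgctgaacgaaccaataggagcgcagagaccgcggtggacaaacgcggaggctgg

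Pclaf: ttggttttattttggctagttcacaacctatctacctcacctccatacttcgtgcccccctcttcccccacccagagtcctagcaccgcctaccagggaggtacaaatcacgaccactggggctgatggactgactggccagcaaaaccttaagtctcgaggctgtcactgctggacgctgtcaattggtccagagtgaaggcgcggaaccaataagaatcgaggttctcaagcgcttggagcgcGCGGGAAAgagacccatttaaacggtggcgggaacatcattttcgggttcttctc

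Ranbp1: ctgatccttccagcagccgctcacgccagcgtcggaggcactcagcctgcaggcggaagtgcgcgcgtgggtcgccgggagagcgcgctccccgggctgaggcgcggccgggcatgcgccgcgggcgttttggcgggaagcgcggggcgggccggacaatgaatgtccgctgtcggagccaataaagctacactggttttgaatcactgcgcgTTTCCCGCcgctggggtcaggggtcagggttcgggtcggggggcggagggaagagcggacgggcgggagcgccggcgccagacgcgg

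Ncapd2: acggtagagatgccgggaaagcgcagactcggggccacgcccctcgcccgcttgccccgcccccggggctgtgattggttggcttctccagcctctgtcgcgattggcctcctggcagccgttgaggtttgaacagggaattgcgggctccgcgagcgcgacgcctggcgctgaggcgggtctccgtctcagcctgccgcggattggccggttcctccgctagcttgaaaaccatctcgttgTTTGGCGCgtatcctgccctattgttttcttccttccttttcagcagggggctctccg

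Pclaf, a PCNA-binding factor, and Ranbp1, a cofactor of the GTPase Ran, were named for these windows after their values were seen. Pclaf fell by 0.33, 0.67 and 0.36 with IL-4, LPS/IFN-γ and TGF-β, a call lost without IL-4 array 1 (adjusted p = 0.0790), and Ranbp1 fell by 0.34, 0.44 and 0.39.

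Genes of ribosome assembly were lower in the average, with medians of -0.05 with IL-4, -0.27 with LPS/IFN-γ and -0.43 with TGF-β. Of 30 measured, 21 were lower (70.0%, beside 20.5% of all genes) and none higher, with a median of -0.27. IL-4 alone called 4 lower, LPS/IFN-γ 17 lower and 3 higher and TGF-β 25 lower and 1 higher. Of all genes these stimuli called 6.32%, 34.3% and 19.0% lower and 5.64%, 21.5% and 19.7% higher. Polr1b and Gar1 were shared (6.67%, beside 1.72% of all genes). Polr1b, a core subunit of RNA polymerase I, was at 10.23, 10.10 and 10.27 with IL-4, 9.97, 10.34 and 9.78 with LPS/IFN-γ and 9.61, 9.95 and 9.90 with TGF-β, against 10.48, 10.56, 10.82, 10.85, 10.57 and 10.51 in untreated cells. The groups did not overlap, and the log2 fold changes were -0.43, -0.60 and -0.81 (adjusted p = 0.0325, 6.9e-04 and 9.3e-05), with the IL-4 call lost without any 1 IL-4 array or untreated array 3 or 4. Gar1, a protein of box H/ACA small nucleolar particles, fell by 0.24, 0.19 and 0.29, a call kept in 2 of the 15 fits that leave out 1 array, those without untreated array 5 or 6. Tsr2, a ribosome maturation factor, fell by 0.46, 0.64 and 0.41 on its brighter probe, a call lost without IL-4 array 3 (adjusted p = 0.0571). That probe was above background on 5 of the 9 stimulated arrays and on all 6 untreated ones, and another probe of nearly the same brightness gave -0.08, -0.02 and -0.15.

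Ran, the GTPase that drives transport through the nuclear pore, was at 7.78, 8.23 and 8.35 with IL-4, 7.82, 8.15 and 7.57 with LPS/IFN-γ and 7.78, 7.67 and 8.12 with TGF-β, against 8.57, 8.73, 8.47, 8.71, 8.58 and 8.78 in untreated cells. All stimulated arrays were lower, with a wider spread than the untreated arrays. The log2 fold changes were -0.52, -0.79 and -0.78 (SE 0.14 each; adjusted p = 0.0267, 2.3e-04 and 4.7e-04), and the IL-4 call was lost without IL-4 array 1 or untreated array 2 or 6 (largest adjusted p 0.1640).

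The remaining lower genes had assorted roles. Akr1b8, an aldo-keto reductase, was at 10.58, 10.53 and 10.67 with IL-4, 10.37, 10.37 and 9.92 with LPS/IFN-γ and 10.39, 10.31 and 10.21 with TGF-β, against 11.14, 11.23, 11.18, 11.08, 11.09 and 11.04 in untreated cells. The groups were well apart, and the log2 fold changes were -0.53, -0.91 and -0.82 (adjusted p = 0.0017, 9.5e-07 and 7.0e-06). Igfbp4, a secreted binding protein of insulin-like growth factors, fell by 0.47, 2.13 and 0.85, and another probe of like brightness gave -0.21, -1.78 and -0.51. Its IL-4 call was lost without any 1 IL-4 array or untreated array 2 (largest adjusted p 0.1394). Car12, a membrane carbonic anhydrase, fell by 0.53, 0.26 and 0.93 and was the only shared gene of 25 glycolysis and hypoxia genes, a call lost without LPS/IFN-γ array 1. Fcrl1, an Fc receptor-like protein known from B cells, fell by 0.66, 0.89 and 0.47, a call lost without TGF-β array 2.

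Epop, a protein that binds Polycomb repressive complex components, fell by 0.45, 0.85 and 0.50, and Cyb5rl, a cytochrome b5 reductase-like protein, fell by 0.44, 1.55 and 0.45. Their IL-4 adjusted p-values of 0.0440 and 0.0488 lay just inside the threshold, and the calls held in 4 and 2 of the 15 fits that leave out 1 array. These were the fits without LPS/IFN-γ array 1, 2 or 3 or TGF-β array 1 for Epop, and those without LPS/IFN-γ array 1 or 3 for Cyb5rl. St3gal6, a sialyltransferase, was not well above background with IL-4 or TGF-β, so that it was at least 2.17-fold and 2.14-fold lower than in untreated cells (adjusted p = 0.0036 and 2.4e-05), a bound that sets the dim side at the lowest signal above background. With LPS/IFN-γ 1 array was above background and the arrays read 5.71, 5.37 and 7.03, against 6.76 to 6.85 in untreated cells, and the call was lost without LPS/IFN-γ array 1 or 2.

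Of 28 pathway lists the DNA replication, mitosis and ribosome assembly lists had the lowest medians in the average. The direction of their medians held under cyclic loess and under scaling to the array median, at -0.25 and -0.43 for DNA replication, -0.25 and -0.41 for mitosis and -0.21 and -0.37 for ribosome assembly, where the median of all genes was 0.02 and -0.15. Their shared counts of 5, 3 and 2 were 4, 1 and 1 under cyclic loess and 1, 0 and 0 under median scaling. Oxidative phosphorylation had 10 of 37 genes lower (27.0%, near the 20.5% of all genes) and none higher in the average. It had 2 lower under cyclic loess, and no shared gene. Of 12 chemokines 9 were higher and 2 lower in the average (75.0% and 16.7%, beside 14.9% and 20.5% of all genes). Of 14 genes of resting microglia 6 were higher and 2 lower (42.9% and 14.3%), with no shared gene in either list. In both lists some stimuli called mostly higher and others mostly lower. Of the chemokines LPS/IFN-γ called 11 higher and 1 lower, IL-4 2 higher and 3 lower and TGF-β 1 higher and 6 lower. Of the resting genes TGF-β called 9 higher and none lower, IL-4 1 higher and none lower and LPS/IFN-γ none higher and 6 lower. Of all genes IL-4 called 5.64% higher and 6.32% lower, LPS/IFN-γ 21.5% and 34.3%, and TGF-β 19.7% and 19.0%. A gene could enter the test through the 3 arrays of 1 stimulus alone, such as LPS/IFN-γ for chemokines or TGF-β for resting genes. For such a gene a higher call with that stimulus largely follows from the filter. In the resting list Olfml3 and Tmem119 were above background with TGF-β alone, where they were at least 13.2-fold and 2.34-fold higher than in untreated cells (adjusted p = 4.1e-15 and 3.4e-08).

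**Figure D3:**
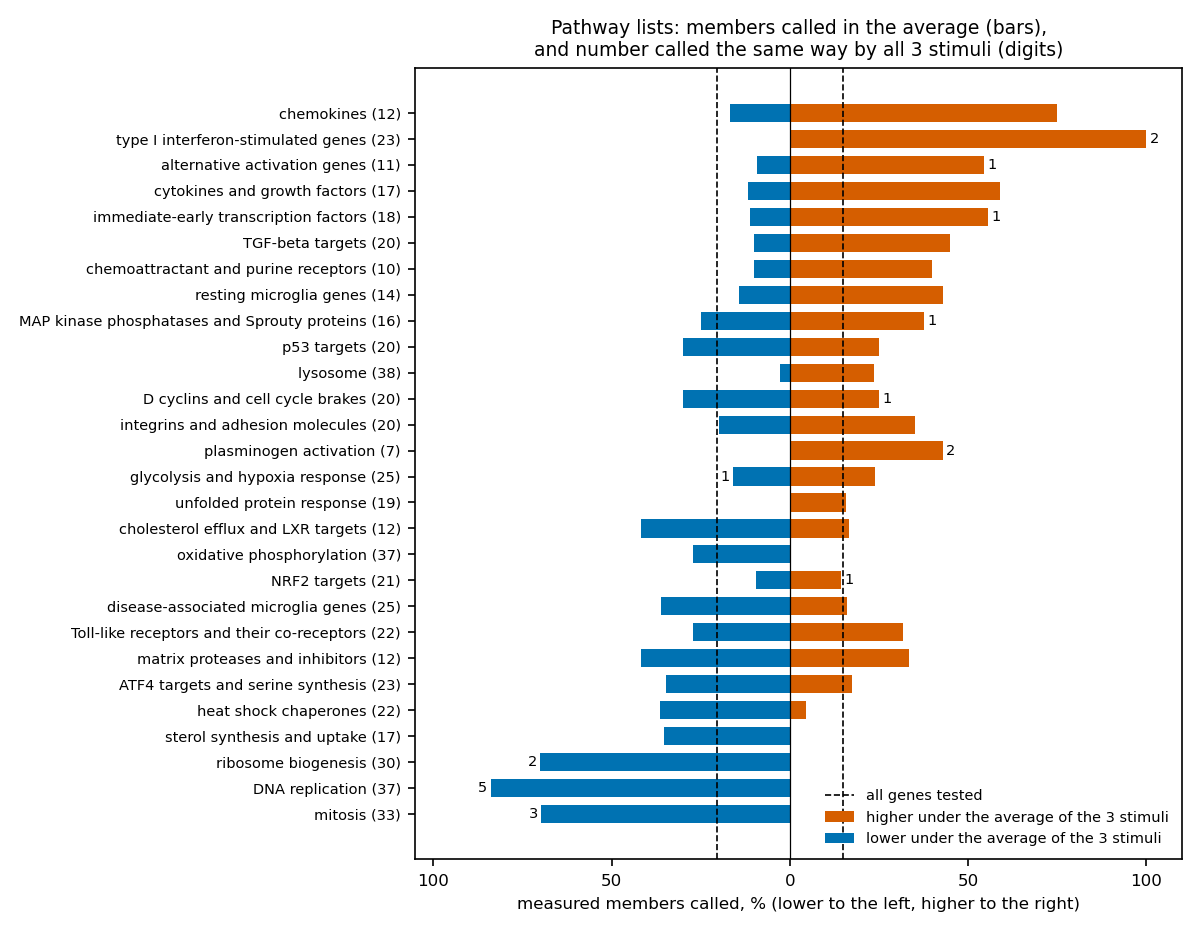
Share of the measured members of 28 pathway lists (number measured in brackets) called higher (right) or lower (left) in the average of the 3 stimuli over untreated, in percent. Dashed lines are the shares of all genes tested, 14.9% higher and 20.5% lower, and digits give the number of members called the same way by all 3 stimuli. The lists of DNA replication, mitosis and ribosome assembly stand out to the left, with 5, 3 and 2 shared genes (1, 0 and 0 under median scaling).

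A gene could be called in the average without being shared. The 5 genes with the highest fitted averages were Gbp2, Serpina3f, Gbp3, Parp14 and Ccl5, and of these Parp14 was shared. Their order has no weight where a group was not above background, as in all of these but Parp14. Gbp2, an interferon-induced GTPase, was not well above background in untreated cells and was at least 579-fold higher with LPS/IFN-γ (adjusted p = 4.3e-17), at least 1.06-fold higher with IL-4 (adjusted p = 0.0044) and not well above background with TGF-β. Serpina3f, a serine protease inhibitor, was at least 244-fold higher with LPS/IFN-γ and not well above background in the other groups. Gbp3 was at 0.13 with IL-4 (not called) and 7.92 with LPS/IFN-γ, and was not well above background with TGF-β.

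In some genes the average hid opposite calls. Acod1, the enzyme that makes itaconate, was at 6.73, 6.52 and 6.65 with IL-4, 13.34, 13.58 and 13.04 with LPS/IFN-γ and 8.47, 8.34 and 8.30 with TGF-β, against 7.13, 7.05, 6.90, 7.17, 7.11 and 7.41 in untreated cells. IL-4 arrays lay below and the others above the untreated arrays, for log2 fold changes of -0.50, 6.19 and 1.24 and an average of 2.31. Tnfsf13b, the B cell survival factor BAFF, had -0.53, 4.02 and 1.71. Ccl5, Ccl2 and Isg15, 2 chemokines and a ubiquitin-like protein, rose with LPS/IFN-γ by 7.77, 4.44 and 5.24 and were at least 1.26-fold, 1.25-fold and 1.27-fold lower with TGF-β, where they were not well above background. On the lower side, Gas7, an actin-associated adaptor, was at 0.05 with IL-4, rose by 0.70 with LPS/IFN-γ and was at least 23.3-fold lower with TGF-β. Klk1b11, a kallikrein, rose by 1.54 with IL-4, fell by 2.27 with LPS/IFN-γ and was at least 6.51-fold lower with TGF-β. Cytip, a cytohesin-binding protein, had 0.88, -3.58 and -1.34, Ankrd37, a hypoxia-induced gene, 0.99, -3.96 and -0.25, and the chemokine Ccl9 -1.09, 0.41 and -2.39, each called except Ankrd37 with TGF-β (adjusted p = 0.0754). Abca9, a lipid transporter of the ABC family, had 0.33 with IL-4 (not called), -2.82 with LPS/IFN-γ, on a probe not above background there, and -1.24 with TGF-β.

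**Figure D4:**
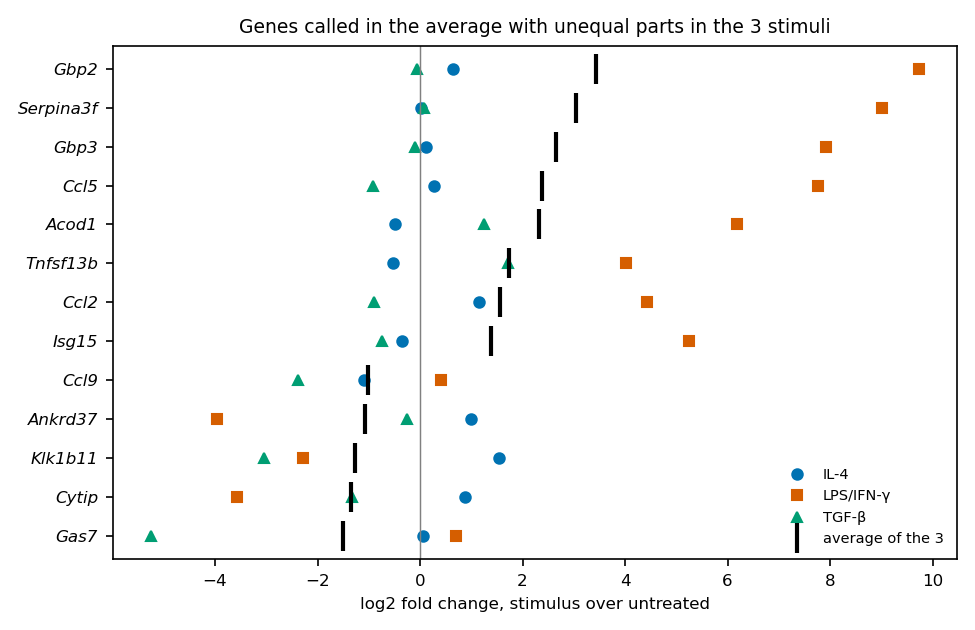
Log2 fold change over untreated (horizontal axis) with IL-4 (circles), LPS/IFN-γ (squares) and TGF-β (triangles) for 13 genes with high or low averages or opposite calls, and black bars are the fitted averages. Where a group was not above background, as Gbp2 in untreated cells or Gas7 with TGF-β, the point is a fitted value and no bound. Acod1 has points at -0.50 with IL-4, 6.19 with LPS/IFN-γ and 1.24 with TGF-β.

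The size of the shared set rested on a few arrays. Leaving out 1 array gave between 81 and 185 shared genes. The lowest counts were without IL-4 array 3 (81) and IL-4 array 1 (84), and the highest was without LPS/IFN-γ array 3 (185). For higher genes the count was 32 without IL-4 array 1, 38 without IL-4 array 3 and 40 without untreated array 2, against 63 with all arrays, and for lower genes it was 52 without IL-4 array 1 and 43 without IL-4 array 3, against 84. In each of the 15 fits that leave out 1 array, 17 of the 63 higher and 19 of the 84 lower genes kept their call. With chip as a fixed block 61 genes were shared higher and 97 lower, and 135 of the 147 kept their call. Of the 147, 113 kept it under cyclic loess, 96 with no filter on dim probes and 30 under median scaling. Adgre1, Cd274, Cd40 and Rnf19b among the higher genes and 10 lower genes, Cad, Tk1, Pbk and Akr1b8 among them, also kept it under all 13 other ways of processing. Of the 147 genes 56 had more than 1 kept probe, and in 5 of these all kept probes were called the same way by all 3 stimuli.

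**Figure D5:**
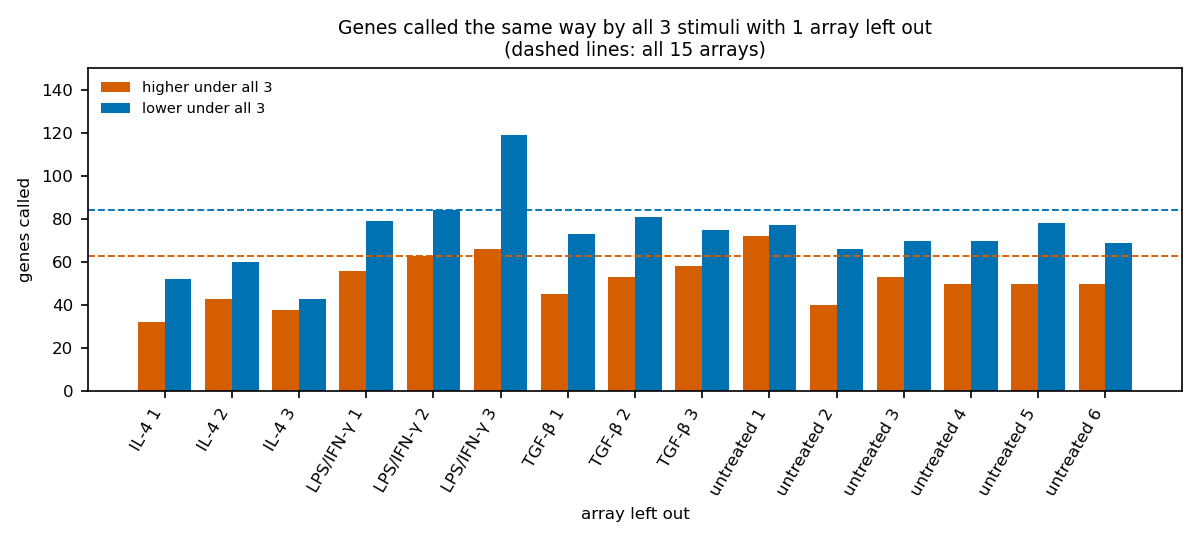
Number of genes called higher (orange) and lower (blue) by all 3 stimuli (vertical axis) when 1 of the 15 arrays was left out (horizontal axis), with dashed lines at 63 and 84 for all arrays. The bars drop most without an IL-4 array and the lower bar rises to 119 without LPS/IFN-γ array 3.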

How the data were processed

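Per the labels' protocols, total RNA was extracted with TRIZOL and labelled with biotin, and the submitters' processing notes name Partek without a version. The authors deposited unscaled bead intensity values for 45281 probes, with no background taken off, and per the file headers a detection p-value for each. Another deposited table holds the authors' log2 values, which matched quantile-normalized log2 signals after removal of a chip effect (median absolute difference 2.9e-06) and was used for an alternative.

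Intensities were corrected with neqc (offset 16), quantile-normalized and put on the log2 scale (R 4.3.3, limma 3.58.1). Background correction widens the log2 fold changes of dim genes. A probe entered with a detection p under 0.01 on 3 or more of the 15 arrays (15434 probes). Of these 13310 had 1 gene symbol, and the probe with the highest mean stood for its gene, leaving 8561 genes. Between 13601 and 14789 probes were above background per array. Precision is limited by the number of arrays. The median standard error came to 0.0750 for the average and 0.1006 for a single stimulus.

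A model with 4 group means was fitted with limma (lmFit and eBayes, two-sided, Benjamini-Hochberg within a comparison, adjusted p under 0.05). The 3 comparisons share the 6 untreated arrays, so no overlap between them is given beyond the count that defines the shared genes. The members, gene lists and Plau were chosen with earlier results of these data known. Named genes were the 12 shared genes of each direction with the largest weakest fold change and no overlap (predicted models skipped), up to 2 shared genes per direction of each list, all measured plasminogen genes, 5 genes of each direction with opposite calls, and the 5 highest and 5 lowest averages. The 5 genes most like Plau, picked among the shared genes alone, were named too. Other genes are named as examples of their list or for a promoter window, chosen after their values were seen. Promoters are from RefSeq (GRCm38.p6). The fit was tested on simulated data. Of 18 pairs of same-numbered arrays 10 deviated together with r over 0.1, all 6 pairs of number 1 (r from 0.17 to 0.36, all on chip 1), 3 of 6 of number 2 and 1 of 6 of number 3. The array titles hold no such number, and arrays were numbered within a group in the order listed. For this reason, and since not every pair did, the numbers were not taken to pair the arrays.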

Additional observations from a re-analysis of the deposited data

Results flagged for a closer look

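Of 61 named genes, 3 had 1 untreated array apart from the other 5 by a gap beyond Dixon's 95% critical value, and chance gives such a gap in about 1 in 20 groups. For Ccl5 it was untreated array 3, at 5.82 and lower than the other untreated arrays, which lay between 6.04 and 6.11. For Ccng2 it was untreated array 3 again, at 8.10 and higher than the others, between 7.72 and 7.84. For Igfbp4 it was untreated array 6, at 10.76 and lower than the others, between 10.89 and 10.96.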

How the results depend on the processing

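No called average of a named gene changed direction under an alternative, but the median of all genes in the average, -0.03, was 0.02 under cyclic loess, where 1692 genes were higher and 1242 lower. The 147 shared genes (63 higher, 84 lower) became 31 (11 and 20) under median scaling, 309 (100 and 209) in the authors' log2 table and 64 (29 and 35) with the replicate block, and 38 with the largest p adjusted over all genes and 20 with 1.5-fold in each comparison. Shared higher genes were 40 with no filter on dim probes, and shared lower genes 51 under cyclic loess and 131 with array weights. The IL-4 count of 1024 was 345 under median scaling, 1767 in the authors' table and 459 with the replicate block. The average of the 3 stimuli against untreated called 1680 genes with the replicate block (781 higher, 899 lower), 342 with the differences among stimuli left in the residual and 447 at a minimum fold of 1.2, and under median scaling 530 were higher. The share of calls in the average that were higher was 42.0%, 57.7% under cyclic loess and 22.2% under median scaling. Arrays numbered 1 deviated together (6 of 6 pairs with r over 0.1) and those numbered 2 and 3 did so in 4 of 12 pairs. The replicate block is the array number, which follows the listed order and no label. In it untreated arrays 4, 5 and 6 are each alone at their number and add nothing to the comparison. The drop in counts with this block thus does not measure pairing. Leaving out 1 array gave 2583 to 3155 genes in the average (1083 to 1356 higher, 1500 to 1837 lower), 594 to 1410 with IL-4 (594 without IL-4 array 1), 4125 to 4794 with LPS/IFN-γ, 2710 to 3681 with TGF-β, 81 to 185 shared (32 to 72 higher, 43 to 119 lower) and 5268 to 5555 that differed among stimuli. Without untreated arrays 2 and 6, chosen after seeing the data, 84 genes were shared (37 higher, 47 lower), 79 of them among the 147. The causes were not tested. Genes near background have only bounds, and arrays in groups of 3 limit the smaller changes.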

Other observations

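A pair of gene lists was put together after the values were seen, and neither is independent of them. Of 26 measured genes of nucleotide synthesis, 17 were lower in the average, beside 20.5% of all genes, and none higher. The median log2 fold change was -0.30, beside -0.03 over all genes. Beside a shared share of 1.72% over all genes, 6 of the 26 were shared. Beside Cad, Tk1 and Rrm2 these were Rrm1, the large subunit of ribonucleotide reductase (-0.35, -0.40 and -0.48 with IL-4, LPS/IFN-γ and TGF-β), Dctd, the dCMP deaminase (-0.30, -0.58 and -0.36), and Dtymk, the thymidylate kinase (-0.32, -0.16 and -0.40). The call of Dctd was lost without IL-4 array 1 or 3, and that of Dtymk without LPS/IFN-γ array 1 or 2 or untreated array 2. Under cyclic loess 15 of the 26 were lower and none higher.

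Of 41 measured genes of the Ran cycle and nuclear transport, 16 were lower in the average, beside 20.5% of all genes, and none higher (median -0.14). Of the 41, 6 were shared, beside 1.72% of all genes. LPS/IFN-γ alone called 22 lower and 7 higher, IL-4 8 lower and none higher, and TGF-β 18 lower and 1 higher. Of all genes LPS/IFN-γ called 34.3% lower and 21.5% higher, IL-4 6.32% and 5.64%, and TGF-β 19.0% and 19.7%. Beside Ran and Ranbp1 the shared ones were Rcc1, the nucleotide exchange factor of Ran (-0.30, -0.34 and -0.63), Nxt1, an mRNA export cofactor (-0.30, -0.31 and -0.38), and the nuclear pore proteins Nup107 (-0.35, -0.50 and -0.64) and Nup210 (-0.32, -0.22 and -0.21). Of these calls, that of Rcc1 was lost without IL-4 array 1 or 3 or untreated array 1, 2 or 6, that of Nxt1 without IL-4 array 2 or 3, that of Nup107 without IL-4 array 1 or 2, and that of Nup210 without TGF-β array 3.

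Among the shared genes with a promoter window, Plgrkt and Cd274 were the only pair with starts within 10 kb of each other. They lie on opposite strands of chromosome 19 with starts 5567 bases apart (GRCm38.p6), and both were higher.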
